A study of Rattus norvegicus with 12 samples.

Results

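Polyadenylated RNA of antigen presentation and major histocompatibility complex (MHC) genes was examined in 12 libraries of cells labelled as rat hepatic stellate cells. The genes were chosen by name, as all rows whose symbol starts with RT1-, the prefix of rat MHC genes, together with 20 named partners. A mean of at least 1 CPM over the libraries was required, CPM being the gene's counts scaled to a common library total. Of 63 candidate rows, 10 lay below that level and 2 were second rows of a repeated symbol, which left 51 of the 32623 genes in the files, 31 of them RT1 genes. Just inside the minimum were RT1-M6-2 at a mean of 1.47 CPM and RT1-S2 at 1.48 CPM, and just outside were RT1-Ha at 0.614 CPM and RT1-M6-1 at 0.583 CPM. All 51 genes also passed the expression filter of the test.

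The groups were cells co-cultured for 24 h with human amniotic epithelial cells (hAEC), cells co-cultured for the same time with human amniotic mesenchymal stromal cells (hAMSC), and cells given vehicle (Veh), with 4 libraries each. The human cells, 15000 viable cells per culture, sat in Transwell inserts, whose membrane separates them from the rat cells below. Per the labels, all 3 groups came from rats made cirrhotic by long inhalation of carbon tetrachloride, so no group is of healthy origin. Strain, age and sex are not given in the labels, and neither is the source of each library: those of a group may be separate animals, separate cultures or repeats of 1 culture. The p-values therefore hold for the spread among these 12 libraries alone, which may be technical.

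Class II MHC molecules carry peptides from the endosomes of phagocytes, B cells and dendritic cells to CD4 T cells. Their alpha and beta chains meet the invariant chain Cd74 after synthesis, and exchange factors of the DM type later load peptide in its place. Class I molecules show peptides made by the proteasome to CD8 T cells. Their heavy chain pairs with B2m and is loaded by the transporter of Tap1 and Tap2 with tapasin, and interferon gamma is known to raise most of these genes, through Ciita for class II and Nlrc5 for class I.

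The promoter bases below are shown as background, since these windows hold letters known from the control of class II and class I genes. Whether the letters have a part in any difference between libraries was not tested. The 250 bases before the annotated start are from RefSeq, build GRCr8, which is not the build of the files, on the gene's own strand. Capitals mark the letters found by a search of both strands for 4 motifs chosen after the sequences were seen: the class II X box (AGCAACNGA), the Y box (TGATTGG), the interferon-stimulated element (GAAANNGAA) and the kappa B site (GGGGATTCC). No marked motifs overlap within a window. The label of a window names only matches to these exact letters, N being any base, and variants of the motifs were not searched.
RT1-Da, class II alpha chain, chr20:4515165-4515414, plus strand, X box and Y box: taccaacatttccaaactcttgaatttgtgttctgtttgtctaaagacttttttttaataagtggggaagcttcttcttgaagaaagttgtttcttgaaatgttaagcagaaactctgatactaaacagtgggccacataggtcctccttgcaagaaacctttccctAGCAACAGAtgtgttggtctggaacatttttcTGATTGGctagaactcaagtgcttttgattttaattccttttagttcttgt
RT1-Db1, class II beta chain, chr20:4560163-4560412, minus strand, X box and Y box: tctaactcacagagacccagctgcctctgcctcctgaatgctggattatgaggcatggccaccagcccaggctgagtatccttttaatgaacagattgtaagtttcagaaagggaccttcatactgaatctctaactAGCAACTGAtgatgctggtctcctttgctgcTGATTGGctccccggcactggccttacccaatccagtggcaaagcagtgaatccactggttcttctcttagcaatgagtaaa
RT1-Ba, class II alpha chain, chr20:4576807-4577056, plus strand, Y box: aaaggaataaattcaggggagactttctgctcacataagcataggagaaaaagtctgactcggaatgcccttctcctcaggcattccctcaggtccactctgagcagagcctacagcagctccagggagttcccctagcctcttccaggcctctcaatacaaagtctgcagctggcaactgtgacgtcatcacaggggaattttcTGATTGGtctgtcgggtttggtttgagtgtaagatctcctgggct
RT1-Bb, class II beta chain, chr20:4604119-4604368, minus strand, Y box: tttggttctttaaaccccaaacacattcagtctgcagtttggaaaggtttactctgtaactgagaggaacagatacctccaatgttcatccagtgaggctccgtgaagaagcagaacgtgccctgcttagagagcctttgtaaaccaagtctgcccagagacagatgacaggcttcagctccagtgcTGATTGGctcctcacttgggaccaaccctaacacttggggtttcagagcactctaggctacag
RT1-A2, class I heavy chain, chr20:4872621-4872870, plus strand, kappa B and Y box: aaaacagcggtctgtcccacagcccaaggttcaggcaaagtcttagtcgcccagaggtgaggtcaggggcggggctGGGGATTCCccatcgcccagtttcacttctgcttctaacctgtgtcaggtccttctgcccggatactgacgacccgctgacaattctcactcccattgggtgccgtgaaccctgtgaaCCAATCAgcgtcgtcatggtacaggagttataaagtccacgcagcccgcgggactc
Tap1, peptide transporter, chr20:4668544-4668793, minus strand, interferon-stimulated element: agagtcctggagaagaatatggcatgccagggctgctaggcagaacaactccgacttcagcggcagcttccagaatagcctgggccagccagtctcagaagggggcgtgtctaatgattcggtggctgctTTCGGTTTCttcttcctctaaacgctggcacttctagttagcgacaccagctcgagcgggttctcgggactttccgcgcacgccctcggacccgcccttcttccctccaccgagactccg
Psme2, proteasome activator, chr15:33052752-33053001, minus strand, interferon-stimulated element: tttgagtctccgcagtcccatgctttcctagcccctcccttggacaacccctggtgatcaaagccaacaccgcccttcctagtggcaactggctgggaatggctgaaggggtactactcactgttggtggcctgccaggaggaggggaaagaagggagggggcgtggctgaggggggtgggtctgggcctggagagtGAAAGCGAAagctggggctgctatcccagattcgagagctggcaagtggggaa

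Of the 51 genes, 44 matched the RefSeq promoter table by symbol. The Y box letters were in all 5 class II chain windows, in 9 of 20 class I chain windows and in 18 of the 44, against 6.42% of the 33469 promoter windows of the table. Those of the X box were in RT1-Da, RT1-Db1, RT1-Db2 and RT1-DOb, against 1.05% of all windows. The kappa B letters stood before 6 class I heavy chain genes (RT1-A1, RT1-A2, RT1-CE3, RT1-CE4, RT1-CE10 and RT1-CE16), against 0.242% of all windows. Those of the interferon-stimulated element stood before 10 of the 44, Tap1, Tap2, Tapbp, Psmb10, Psme2 and B2m among them, against 8.12%. In RT1-Da the Y box ran from 51 to 45 bases before the start and the X box from 83 to 75. The motifs were chosen after these sequences were seen, and near-identical RT1 copies are counted singly. The shares over all windows are therefore no test of these counts. A match of letters describes the window and is not evidence of binding. A window without a match may still hold a variant of the motif, so no match is not evidence that the element is absent.

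The 12 libraries split into 2 sets by sample number, with all 3 groups in each. Set B holds the 2 higher-numbered libraries of each group (hAEC 11 and 12, hAMSC 15 and 16, Veh 19 and 20) and set A the 2 lower-numbered (hAEC 3 and 4, hAMSC 7 and 8, Veh 17 and 18). The sets were found from all genes of these libraries, and the labels give them no name, so differences between them are described here and not tested. Stellate cell markers were near 0 in both sets (7 genes summing to 8.12 to 13.8 CPM in set B and 4.15 to 8.28 CPM in set A), which goes against the label. The 10 macrophage markers summed to 15852 to 17307 CPM in set B and 5944 to 6309 CPM in set A. Of these, every set B library was above every set A library for 6 and below for 2, and 2 overlapped. Over all 13539 genes tested, 24.8% were above and 30.4% below. Lyz2, lysozyme, had 8315 to 9668 CPM in set B and 1001 to 1210.2 CPM in set A, and Adgre1 735 to 787 CPM in set B and 58.2 to 76.6 CPM in set A. Clec4f, a marker of Kupffer cells, had 725 to 897 CPM in set B and 899.8 to 1041 CPM in set A. Endothelial markers summed to 75.5 to 126 CPM in set B and 323 to 414 CPM in set A, with 3 of the 7 below in set B and 4 overlapping. Dendritic cell markers, mostly Itgax, summed to 562 to 625 CPM in set B and 472 to 526 CPM in set A. T and NK cell markers summed to 8.77 to 11.9 CPM in set B and 16.2 to 20.6 CPM in set A. Hepatocyte markers summed to 662 to 812 CPM in set B and 533 to 650.1 CPM in set A. That sum was nearly all Tf, which was higher in set B, while the other 3 tested markers were low and overlapped, and the median log2 ratio over the 4 tested was -0.90. The 7 B cell markers summed to 1.35 to 2.50 CPM in set B and 0.860 to 1.51 CPM in set A, with Cr2 at 0 in all 12 libraries. The part of these cell types in the results was not tested, and in bulk RNA fewer cells of a type and less RNA per cell cannot be told apart. Total counts ran from 27382724 to 34922211 per library, and the spread between libraries within groups, as biological coefficient of variation, was 9.91% with the set in the model and 38.9% without it.

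Between the sets, part of the class II genes took a course opposite to that of most class I genes. Set B stood above set A for 2 of the 5 class II chains, and the other 3 overlapped. Of the 6 class II chaperones and exchange factors, 3 were above, Cd74 and Ifi30 among them, 1 was below and 2 overlapped. Ciita was below. Set B stood below set A for 17 of 22 RT1 class I genes and B2m. It was also below for all 5 peptide loading genes and all 5 genes of the immunoproteasome and its activator. Over the 51 genes, every set B library was above every set A library for 10, against 24.8% of the 13539 genes tested, and below for 32, against 30.4%, and the sets overlapped for 9. The median log2 ratio of set B over set A was -0.51 over the 51 genes and -0.05 over all genes tested. The ratio had the same sign in each of the 3 groups for all 10 peptide loading, immunoproteasome and activator genes. It also did for Cd74, Ifi30, RT1-Da and RT1-Ba, as the plot of set ratios by gene shows. The sets of all these genes lay apart, which fixes the sign within each group, so the shared sign adds no support.

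**Figure D1:**
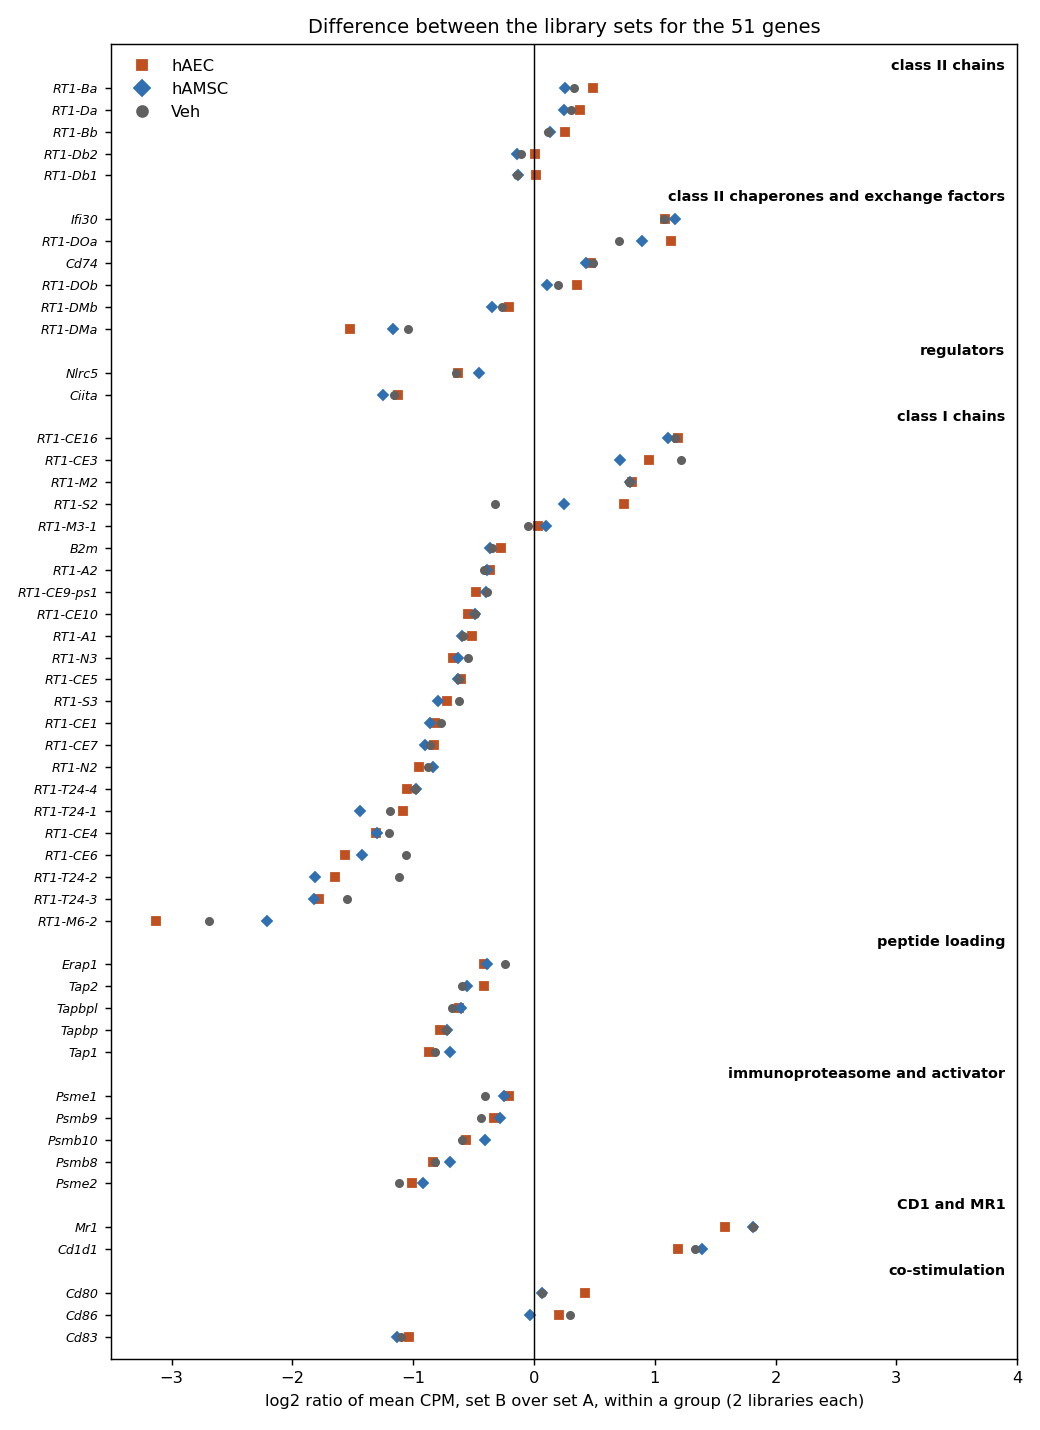
Log2 ratio of mean CPM in set B over set A (x axis) for each of the 51 genes (rows, grouped by role), computed within hAEC, hAMSC and Veh libraries, 2 libraries per set and group. The peptide loading and immunoproteasome genes lie left of 0 in all 3 groups, and Cd74, Ifi30, RT1-Da and RT1-Ba right of it. The sets of these genes do not overlap, which fixes the side within each group.

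The class II alpha chains were higher in set B. RT1-Da is the alpha chain of the DR-like molecule of the rat. It had 3350.2 and 3331 CPM with hAEC, 2935 and 3074 CPM with hAMSC and 3068 and 2988 CPM with Veh in set B. In set A it had 2517 and 2605 CPM with hAEC, 2569 and 2491 CPM with hAMSC and 2506 and 2399.9 CPM with Veh. RT1-Ba, the alpha chain of the DQ-like molecule, had 1474 and 1426 CPM with hAEC, 1222 and 1269 CPM with hAMSC and 1228 and 1279.9 CPM with Veh in set B. Its set A values were 1029.9 and 1041 CPM with hAEC, 1043 and 1046 CPM with hAMSC and 1012 and 987 CPM with Veh. Neither gene's sets overlapped, and the log2 ratios of set B over set A were 0.31 for RT1-Da and 0.36 for RT1-Ba. Within set B the 2 hAEC libraries were the highest for both genes.

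The beta chains stayed within a narrower range. RT1-Db1, the beta chain paired with RT1-Da, had 1371 and 1360.3 CPM with hAEC, 1208 and 1232 CPM with hAMSC and 1169 and 1253 CPM with Veh in set B. The set A libraries had 1334 and 1364 CPM with hAEC, 1342 and 1337 CPM with hAMSC and 1328 and 1341 CPM with Veh. The sets overlapped, and the hAEC libraries of set B reached the level of set A while its hAMSC and Veh libraries lay under it. RT1-Bb, the beta chain of the DQ-like molecule, ran 670.3 to 860.1 CPM in set B and 644 to 695 CPM in set A, and RT1-Db2, a second DR-like beta chain, ran 79.5 to 89.0 CPM in set B and 84.5 to 93.2 CPM in set A. Both also overlapped between the sets. RT1-Db1 and RT1-Db2 had no count within 0.005 of a whole number in any library, as RSEM leaves counts of shared reads, so how reads split between the 2 is uncertain.

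**Figure D2:**
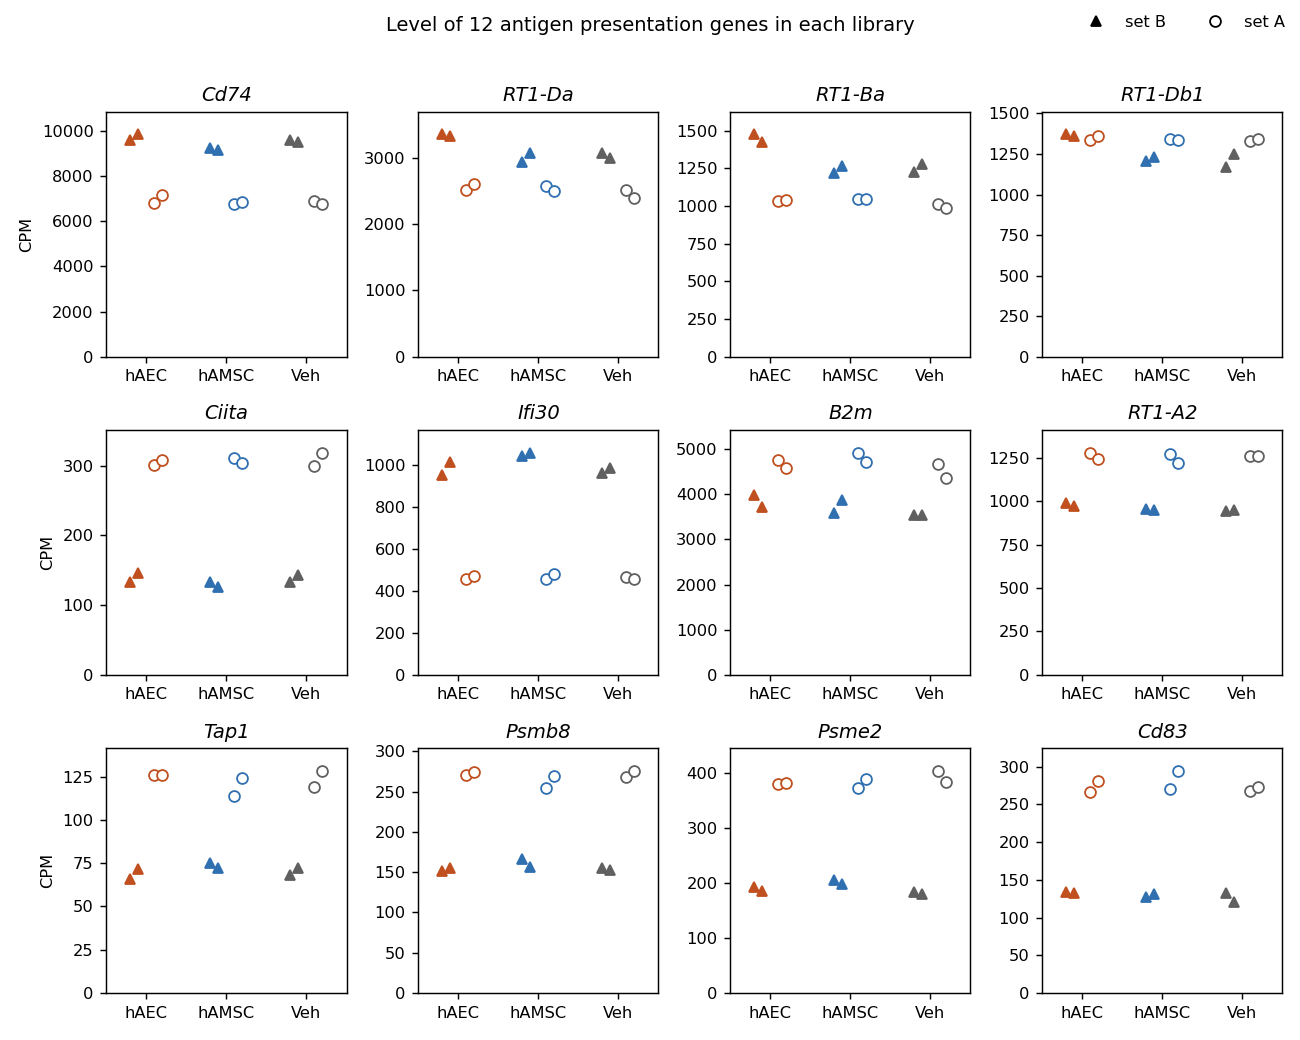
CPM (y axes, from 0) of 12 genes in each of the 12 libraries, with hAEC, hAMSC and Veh from left to right, filled triangles for set B and open circles for set A. Cd74, RT1-Da, RT1-Ba and Ifi30 are higher in set B, Ciita, B2m, RT1-A2, Tap1, Psmb8, Psme2 and Cd83 lower, and the groups within a set lie close together.

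Cd74, the invariant chain that occupies the class II groove and guides the molecule to endosomes, had 9600.5 and 9840.5 CPM with hAEC, 9251 and 9168 CPM with hAMSC and 9599.6 and 9528 CPM with Veh in set B. In set A it had 6820.3 and 7160.5 CPM with hAEC, 6780.3 and 6849 CPM with hAMSC and 6916 and 6743 CPM with Veh. All set B libraries were higher, with a log2 ratio of 0.47. Ifi30, the lysosomal thiol reductase that opens disulfide bonds of antigens, had 952 and 1012 CPM with hAEC, 1040.0 and 1058 CPM with hAMSC and 962 and 985 CPM with Veh in set B. Set A libraries gave 457 and 468 CPM with hAEC, 455 and 478 CPM with hAMSC and 467 and 458 CPM with Veh. Its log2 ratio was 1.11, with the sets far apart. Together the class II chains took 0.618 to 0.707% of all counts in set B and 0.551 to 0.579% in set A, and their chaperones and exchange factors, Cd74 included, 1.05 to 1.12% in set B and 0.765 to 0.823% in set A.

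The exchange factors did not all follow Cd74. RT1-DMb, the beta chain of the DM peptide exchanger, was lower in set B, with 268 to 324 CPM in set B and 348 to 366 CPM in set A. A second row of the same symbol, left out by the rule, ran the same way, with 251 to 290.0 CPM in set B and 341 to 365 CPM in set A. RT1-DMb had whole counts in 0 of the 12 libraries, so how its reads split with other rows is uncertain. RT1-DOa and RT1-DOb, the chains of the DM inhibitor DO, were low: RT1-DOa was higher in set B (5.34 to 7.20 CPM in set B and 2.81 to 4.62 CPM in set A) and RT1-DOb overlapped (4.12 to 5.37 CPM in set B and 3.62 to 4.52 CPM in set A).

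RT1-DMa, the alpha chain of DM, could not be read from its row alone. It had 146 and 2.09 CPM with hAEC, 25.0 and 29.6 CPM with hAMSC and 88.2 and 1.08 CPM with Veh in set B. For set A the values were 197 and 227 CPM with hAEC, 48.3 and 74.6 CPM with hAMSC and 3.01 and 182 CPM with Veh. The 2 libraries of a group and set could lie far apart. Another row, LOC108348072, which has no annotation in the sources used here, ran opposite to it, with a Pearson r of -0.977 within sets over the 12 libraries, the most negative of 11120 rows compared. The pair was found after its values were seen. The sum of the 2 rows was 284 and 323 CPM with hAEC, 293 and 270.3 CPM with hAMSC and 284 and 301 CPM with Veh in set B, and 343 and 369 CPM with hAEC, 329 and 340 CPM with hAMSC and 341 and 355 CPM with Veh in set A. The log2 ratio of set B over set A was -0.24 for the sum and -1.33 for RT1-DMa alone, and the sum's sets did not overlap.

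**Figure D3:**
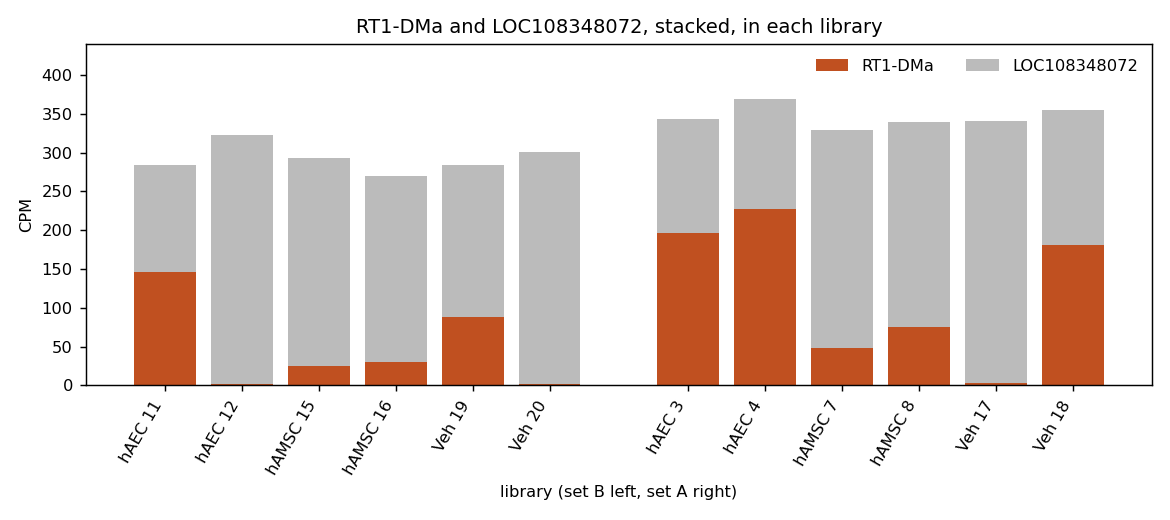
Stacked CPM (y axis, from 0) of RT1-DMa and LOC108348072 in each library, set B left and set A right. RT1-DMa varies from 1.08 to 227 CPM, while the stack varies from 270.3 to 369 CPM.

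Ciita and Nlrc5, the regulators of class II and class I transcription, were both lower in set B. Ciita had 133 and 147 CPM with hAEC, 133 and 126 CPM with hAMSC and 133 and 144 CPM with Veh in set B. In set A it had 300.4 and 308 CPM with hAEC, 311 and 304 CPM with hAMSC and 299.8 and 319 CPM with Veh. Its log2 ratio was -1.18, while Cd74, RT1-Da and RT1-Ba, which it is known to drive, were higher in the same libraries. The other class II genes did not all run this way. RT1-DMb was lower in set B (log2 ratio -0.27) and RT1-DOa higher (0.91). RT1-Db1 (-0.08), RT1-Db2 (-0.08), RT1-Bb (0.17) and RT1-DOb (0.22) overlapped. Nlrc5 had 29.5 and 24.1 CPM with hAEC, 33.0 and 30.3 CPM with hAMSC and 27.5 and 27.4 CPM with Veh in set B. Its set A values were 40.5 and 42.1 CPM with hAEC, 42.9 and 43.8 CPM with hAMSC and 39.4 and 46.5 CPM with Veh. Its log2 ratio was -0.57, in the direction of B2m and most class I genes.

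B2m, the light chain of every class I molecule, had 3984 and 3718 CPM with hAEC, 3589 and 3875 CPM with hAMSC and 3536 and 3540.2 CPM with Veh in set B. In set A it had 4756 and 4577 CPM with hAEC, 4922 and 4709 CPM with hAMSC and 4673 and 4355 CPM with Veh. The sets did not overlap (log2 ratio -0.33). RT1-A2, a classical class I heavy chain, had 989.6 and 972 CPM with hAEC, 954 and 952 CPM with hAMSC and 943 and 948 CPM with Veh in set B. The set A libraries had 1282 and 1247 CPM with hAEC, 1272 and 1223 CPM with hAMSC and 1259.7 and 1264 CPM with Veh. The log2 ratio was -0.39. RT1-CE5, a heavy chain gene of the class I CE region, had 445 and 410.3 CPM with hAEC, 402 and 423 CPM with hAMSC and 412 and 414 CPM with Veh in set B. Set A libraries gave 657 and 642 CPM with hAEC, 641 and 635 CPM with hAMSC and 635 and 632 CPM with Veh. The log2 ratio was -0.62. Class I chains with B2m took 0.613 to 0.665% of counts in set B and 0.824 to 0.877% in set A.

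Of the 22 RT1 class I genes, 17 were lower in set B in every library, with log2 ratios from -2.62 (RT1-M6-2, 0.296 to 0.568 CPM in set B and 2.33 to 2.85 CPM in set A) to -0.39 (RT1-A2). Among these, RT1-A1 had 117 to 129 CPM in set B and 172 to 186 CPM in set A, RT1-CE4 119.6 to 140.4 CPM in set B and 298 to 335 CPM in set A, RT1-T24-4 97.5 to 119 CPM in set B and 216 to 231 CPM in set A and RT1-T24-3 24.1 to 40.5 CPM in set B and 100.1 to 121 CPM in set A. RT1-CE1, RT1-CE5, RT1-CE6, RT1-CE7, RT1-CE9-ps1, RT1-CE10, RT1-N2, RT1-N3, RT1-S3, RT1-T24-1 and RT1-T24-2 lay between these ratios. The 3 class I genes RT1-CE16, RT1-M2 and RT1-CE3 were higher in set B.

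RT1-CE16 had 111 to 132 CPM in set B and 51.3 to 56.7 CPM in set A, RT1-M2 46.7 to 54.7 CPM in set B and 25.1 to 30.7 CPM in set A and RT1-CE3 2.80 to 5.20 CPM in set B and 1.22 to 2.13 CPM in set A. A second row named RT1-CE16 ran the other way, with 4.43 to 6.71 CPM in set B and 11.4 to 15.1 CPM in set A. RT1-M3-1, a class Ib molecule that presents formylated peptides in rodents, and RT1-S2 overlapped between the sets. RT1-M3-1 had 26.9 to 30.8 CPM in set B and 26.6 to 30.1 CPM in set A, and RT1-S2 had 1.01 to 2.36 CPM in set B and 1.09 to 1.53 CPM in set A. None of the 22 RT1 class I genes had whole counts in all 12 libraries, whereas 19 of the 51 genes did, RT1-Da, RT1-Ba, Cd74, B2m, Ciita and Nlrc5 among them, so the split of reads between class I copies is uncertain. The same limit touches genes of loading and the proteasome described next. Tap1 and Tap2 had whole counts in 0 of the 12 libraries, Tapbp and Psme1 in 1 and Psmb8 in 3.

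All 5 peptide loading genes were lower in set B, with a median log2 ratio of -0.63. Tapbp, tapasin, which bridges the class I molecule to the transporter, had 128 and 133 CPM with hAEC, 138 and 130.3 CPM with hAMSC and 134 and 144 CPM with Veh in set B. For set A the values were 228 and 218 CPM with hAEC, 217 and 224 CPM with hAMSC and 226 and 234 CPM with Veh. Erap1, the aminopeptidase that trims peptides in the endoplasmic reticulum, had 119 and 118 CPM with hAEC, 123 and 127 CPM with hAMSC and 127 and 117 CPM with Veh in set B. In set A it had 159 and 156 CPM with hAEC, 164 and 162 CPM with hAMSC and 147 and 143 CPM with Veh. Their log2 ratios were -0.74 and -0.35. The transporter subunit Tap1 had 66.0 to 75.2 CPM in set B and 114 to 129 CPM in set A, and its partner Tap2 69.3 to 79.4 CPM in set B and 95.1 to 114 CPM in set A. Tapbpl, a peptide editor related to tapasin, had 34.8 to 41.6 CPM in set B and 57.9 to 62.1 CPM in set A.

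The immunoproteasome followed. Psme2, the beta subunit of the PA28 activator, had 192 and 185 CPM with hAEC, 205 and 197 CPM with hAMSC and 184 and 179.9 CPM with Veh in set B. Its set A values were 379 and 381 CPM with hAEC, 372 and 389 CPM with hAMSC and 404 and 383 CPM with Veh. Psme1, its alpha subunit, had 236 and 217 CPM with hAEC, 222 and 220.2 CPM with hAMSC and 210.3 and 216 CPM with Veh in set B. The set A libraries had 266 and 257 CPM with hAEC, 251 and 272 CPM with hAMSC and 285 and 279.8 CPM with Veh. Neither overlapped, and the log2 ratios were -1.01 for Psme2 and -0.29 for Psme1. The catalytic subunits Psmb8, Psmb9 and Psmb10 had log2 ratios of -0.78, -0.35 and -0.52, from 151 to 166 CPM in set B and 254 to 276 CPM in set A for Psmb8, 52.2 to 58.8 CPM in set B and 66.7 to 77.0 CPM in set A for Psmb9 and 94.3 to 110.2 CPM in set B and 137 to 146 CPM in set A for Psmb10.

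The class I relatives that do not present classical peptides ran against this. Cd1d1, which presents lipids to NKT cells, had 23.3 and 25.1 CPM with hAEC, 23.9 and 26.2 CPM with hAMSC and 24.6 and 24.5 CPM with Veh in set B. Set A libraries gave 10.5 and 10.7 CPM with hAEC, 9.59 and 9.51 CPM with hAMSC and 10.7 and 8.84 CPM with Veh. Mr1, which presents vitamin B metabolites to MAIT cells, had 6.62 and 6.29 CPM with hAEC, 6.69 and 7.26 CPM with hAMSC and 7.59 and 7.20 CPM with Veh in set B. For set A the values were 2.29 and 2.01 CPM with hAEC, 1.72 and 2.25 CPM with hAMSC and 2.15 and 2.06 CPM with Veh. Both were higher in set B in every library, with log2 ratios of 1.30 and 1.74.

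Of the surface partners, Cd83 alone separated the sets. Cd83, a marker of mature dendritic cells that stabilises class II at the surface, had 134 and 133 CPM with hAEC, 127 and 132 CPM with hAMSC and 132 and 120.3 CPM with Veh in set B. In set A it had 266 and 281 CPM with hAEC, 271 and 295 CPM with hAMSC and 268 and 273 CPM with Veh. The log2 ratio was -1.09. Cd86, a ligand of CD28 on T cells, had 59.3 and 46.3 CPM with hAEC, 45.1 and 42.2 CPM with hAMSC and 52.7 and 50.1 CPM with Veh in set B. Its set A values were 44.6 and 46.8 CPM with hAEC, 43.9 and 45.7 CPM with hAMSC and 43.9 and 39.6 CPM with Veh. The sets overlapped for Cd86, and for its relative Cd80, with 4.98 to 6.11 CPM in set B and 4.02 to 5.26 CPM in set A. Among the dendritic cell markers, Zbtb46 had 1.95 to 3.33 CPM in set B and 8.91 to 10.01 CPM in set A, Flt3 2.58 to 3.28 CPM in set B and 0.315 to 1.30 CPM in set A and Ccr7 17.6 to 35.1 CPM in set B and 14.1 to 22.5 CPM in set A, and Xcr1 and Cd209a were at most 0.0573 CPM.

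No gene of the 51 passed any test between co-cultures. Differences were small: outside RT1-DMa, log2 fold changes ran from -0.16 to 0.27 for hAEC against Veh, with a median of -0.00049, and from -0.19 to 0.33 for hAMSC against Veh, with a median of 0.0020. Each comparison was fitted over all 12 libraries with the set in the model, and p-values were adjusted over all 13539 genes. By edgeR's quasi-likelihood test 0 of 51 genes passed an adjusted p of 0.05 for hAEC against Veh (background 0%), 0 for hAMSC against Veh (background 0.236%) and 0 for hAEC against hAMSC (background 0.0222%). Limma voom also called 0 of the 51 in each, and so did DESeq2, which for hAMSC against Veh gave an adjusted p to 41 of the 51. The comparisons share libraries, so they are not independent.

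The class II chains stood on 1 side with hAEC, below any threshold. All 5 had log2 fold changes above 0 for hAEC against Veh, with a median of 0.10, and for hAEC against hAMSC, with a median of 0.086, while the median for hAMSC against Veh was 0.0090. RT1-Ba had the smallest p, with a log2 fold change of 0.13 (SE 0.044, 95% interval 0.037 to 0.22, adjusted p = 0.860 by edgeR's quasi-likelihood test). At an unadjusted p under 0.05 there were 5 of the 51 genes for hAEC against Veh, or 9.80%, against 5.61% of all genes tested. That count was 2 without hAEC 12, 3 without hAEC 11 and 0 with the group alone in the model. Besides RT1-Ba these were RT1-Da at 0.10 (SE 0.040), RT1-Bb at 0.11 (SE 0.047), RT1-Db1 at 0.094 (SE 0.038) and RT1-CE10, a class I gene, at -0.087 (SE 0.032), with adjusted p from 0.880 to 0.881 by the same test. Cd74 was at 0.027 (SE 0.034) and Ciita at -0.0075 (SE 0.043).

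**Figure D4:**
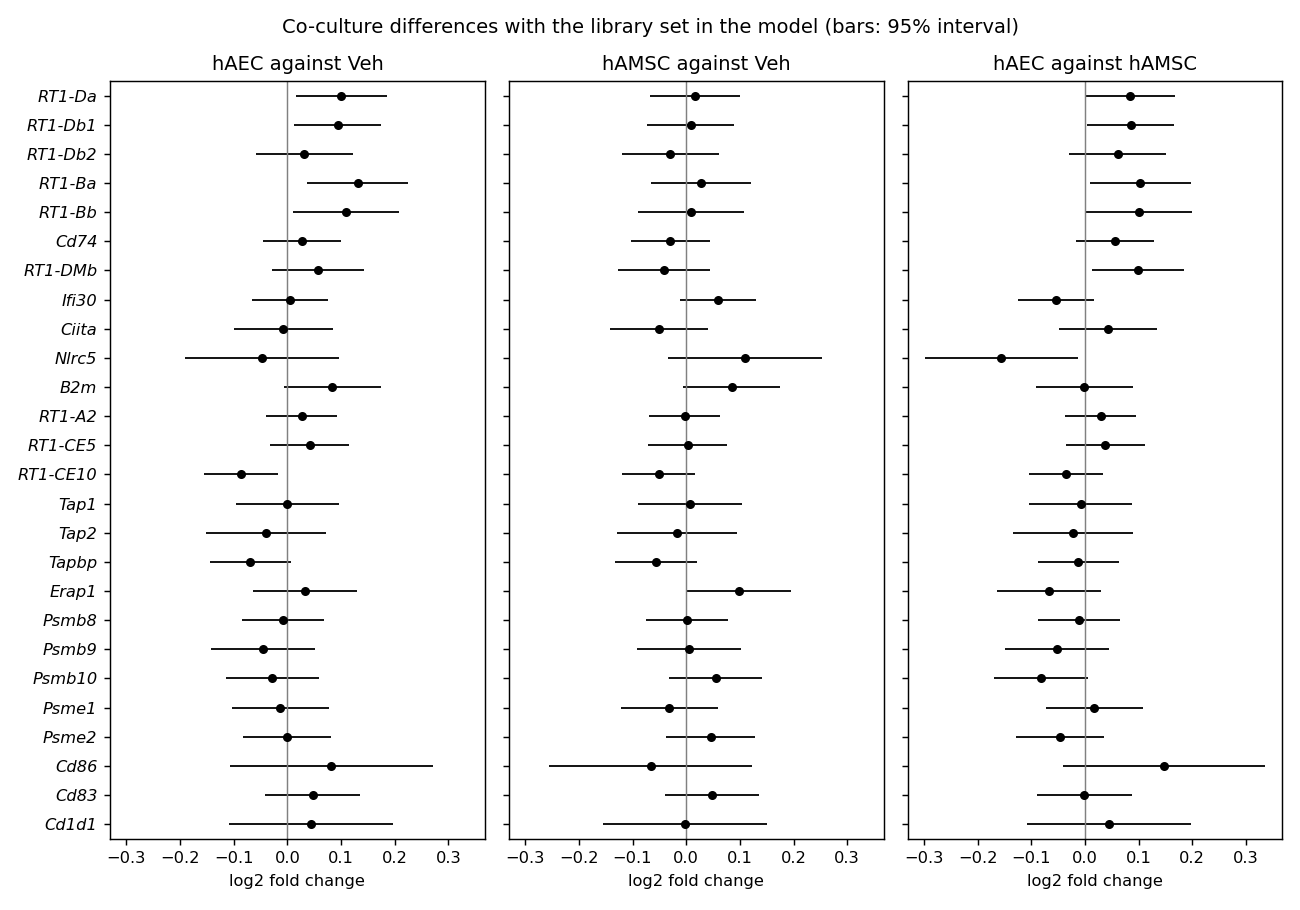
Log2 fold change (x axes) of 26 genes for hAEC against Veh, hAMSC against Veh and hAEC against hAMSC, with the library set in the model; points are estimates and bars 95% intervals. The class II chains at the top lie right of 0 for hAEC against Veh and hAEC against hAMSC, near 0 for hAMSC against Veh, and no gene passed the adjusted threshold.

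In set B alone, log2 fold changes for hAEC against Veh were 0.20 for RT1-Ba, 0.17 for RT1-Bb, 0.16 for RT1-Db1, 0.13 for RT1-Da and 0.078 for RT1-Db2. In set A alone they were 0.065 for RT1-Ba, 0.053 for RT1-Bb, 0.030 for RT1-Db1, 0.076 for RT1-Da and -0.013 for RT1-Db2. None passed in either set. For hAEC against hAMSC the 5 chains ran from 0.14 to 0.23 in set B and from -0.024 to 0.027 in set A, a difference between sets that was not tested for this pair. The test of the difference between sets for hAEC against Veh gave 0.14 (SE 0.066, adjusted p = 0.918 by edgeR's quasi-likelihood test) for RT1-Ba. RT1-Da and RT1-Ba had both hAEC libraries above both Veh libraries in each set, which held for 4.69% of all genes tested, and RT1-CE10 had both below, which held for 3.31%.

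With hAMSC against Veh, 1 of the 51 genes had an unadjusted p under 0.05, against 9.68% of all genes, and the count was 4 without Veh 17, 2 without hAMSC 15 and 0 without hAMSC 16, Veh 20 or any 1 of the 4 hAEC libraries. The gene was Erap1, with a log2 fold change of 0.098 (SE 0.046, adjusted p = 0.508 by edgeR's quasi-likelihood test), which was 0.20 in set A alone and 0.0072 in set B alone. B2m followed at 0.085 (SE 0.043, adjusted p = 0.542), Ifi30 at 0.059 (SE 0.033), Nlrc5 at 0.11 (SE 0.068) and RT1-CE10 at -0.052 (SE 0.032), none past the threshold of the same test. B2m and RT1-M6-2 had both hAMSC libraries above both Veh libraries in each set (4.11% of all genes), and RT1-CE10 had both below (4.03%).

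For hAEC against hAMSC, 6 of the 51 genes had an unadjusted p under 0.05, or 11.8%, against 6.37% of all genes. That count was 0 without hAMSC 16, 1 without hAMSC 15, 3 without hAEC 11 or hAEC 12, and 0 where the model held the group alone. The smallest p belonged to RT1-DMb, at 0.099 (SE 0.041, adjusted p = 0.693 by edgeR's quasi-likelihood test), then RT1-Ba at 0.10 (SE 0.044), Nlrc5 at -0.16 (SE 0.068), RT1-Db1 at 0.086 (SE 0.038), RT1-Bb at 0.10 (SE 0.047) and RT1-Da at 0.084 (SE 0.040). RT1-Bb had both hAEC libraries above both hAMSC libraries in each set (3.74% of all genes), and Erap1 and Nlrc5 had both below (3.61%).

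The class I chains lay on both sides of 0 with either co-culture. Of 23 class I chains, B2m included, 11 were above 0 for hAEC against Veh and 10 for hAMSC against Veh, with medians of -0.0032 and -0.029. Of the 5 peptide loading genes, 4 were below 0 for hAEC against Veh and 2 for hAMSC against Veh. They ran from -0.069 (Tapbp) to 0.032 (Erap1) for hAEC against Veh and from -0.056 (Tapbp) to 0.098 (Erap1) for hAMSC against Veh. All 5 immunoproteasome and activator genes were below 0 for hAEC against Veh, with a median of -0.013, and 1 of the 5 for hAMSC against Veh. They ran from -0.046 (Psmb9) to -0.00048 (Psme2) with hAEC and from -0.031 (Psme1) to 0.055 (Psmb10) with hAMSC. None of the 10 loading, immunoproteasome and activator genes had an unadjusted p under 0.05 for hAEC against Veh. The 95% intervals of Tap1 were -0.097 to 0.096 with hAEC and -0.089 to 0.10 with hAMSC, both against Veh. Those of RT1-A2 were -0.040 to 0.093 with hAEC and -0.069 to 0.064 with hAMSC.

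The difference of each co-culture effect between sets, set B minus set A, was tested for all genes and called 0 of the 51 for hAEC (background 0%) and 0 for hAMSC (background 0.199%), with DESeq2 and limma voom also calling 0. At an unadjusted p under 0.05 there were 4 of the 51 for hAEC, against 5.4% of all genes, and 5 for hAMSC, against 10%. The hAEC count was 0 without hAEC 3, 2 without hAEC 4 or Veh 19 and 7 without hAEC 11. The hAMSC count was 1 without hAMSC 15 or Veh 19, 2 without hAMSC 7 or hAMSC 8, 3 without hAEC 3, hAEC 4, Veh 17 or Veh 18, and 3 with relative log expression scaling. It was 7 without hAEC 11 and 6 without hAEC 12. For hAEC these were Erap1 at -0.19 (SE 0.078), Psme1 at 0.18 (SE 0.075), RT1-S2 at 1.06 (SE 0.47) and RT1-T24-2 at -0.56 (SE 0.25). For hAMSC they were RT1-T24-2 at -0.73 (SE 0.25), Cd86 at -0.37 (SE 0.14), Erap1 at -0.18 (SE 0.078), Psme2 at 0.16 (SE 0.070) and Psmb10 at 0.16 (SE 0.073). Without an expression filter, RT1-T24-2 and Cd86 passed for hAMSC, with adjusted p = 0.0121 and 0.0416 by edgeR's quasi-likelihood test. RT1-DMa, whose row is uncertain, passed for hAEC (adjusted p = 1.63e-05 by the same test). Its unadjusted p in that test went from 0.868 with the filter to 1.01e-07 without it. Without the filter, 533 of 20553 genes were called for hAMSC and 309 for hAEC, against 27 and 0 of 13539 with it.

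Around these genes, 60 further genes of the pathway were measured and tested. Every set B library was above every set A library for 21 of the 60 and below for 24, and 15 overlapped. Over all 13539 genes tested, 24.8% were above and 30.4% below, which is the background for each list here and below. Of the 16 regulators of MHC genes, 5 were above and 8 below. Ifngr1, the ligand-binding chain of the interferon gamma receptor, had 744 to 781 CPM in set B and 250.3 to 294 CPM in set A, while Jak1, the kinase attached to it, had 439 to 454 CPM in set B and 417 to 445 CPM in set A and overlapped. Spi1, a transcription factor of the myeloid lineage, had 194 to 223 CPM in set B and 297 to 313 CPM in set A. Chosen after their values were seen, Jak2 had 108 to 115 CPM in set B and 224 to 262 CPM in set A and Irf8 187 to 202 CPM in set B and 79.4 to 87.0 CPM in set A. Of the RFX complex that binds the X box, also named after its values were seen, Rfx5 was lower (20.4 to 23.9 CPM in set B and 34.1 to 38.4 CPM in set A), while Rfxap (20.5 to 23.5 CPM in set B and 15.2 to 18.9 CPM in set A) and Rfxank (18.5 to 22.2 CPM in set B and 14.7 to 17.8 CPM in set A) were higher.

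**Figure D5:**
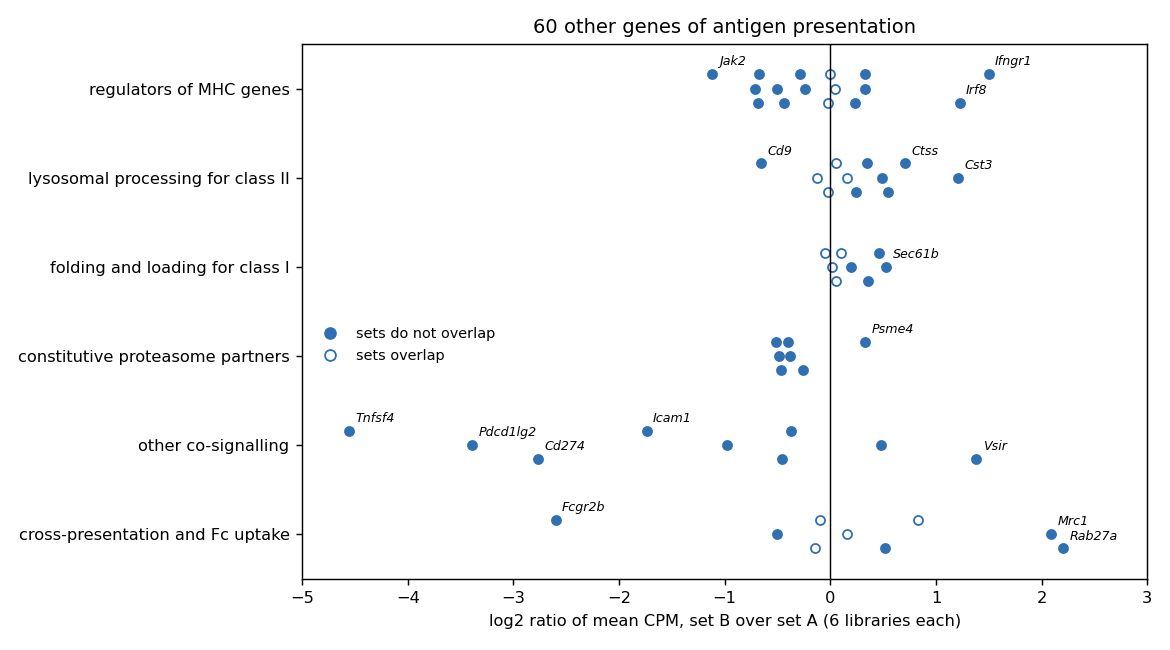
Log2 ratio of mean CPM in set B over set A (x axis) for 60 other genes of antigen presentation in 6 lists (rows), filled where no library of one set overlaps the other. Lysosomal genes lie mostly right of 0, constitutive proteasome partners and co-signalling genes mostly left.

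Of 11 lysosomal genes of class II antigen processing, which act on antigens and the invariant chain, 6 were above in set B like Cd74, 1 was below and 4 overlapped. The proteases Ctsb, Ctsd and Lgmn had log2 ratios of 0.35, 0.49 and 0.55, and, chosen after their values were seen, Ctss, which removes the last part of the invariant chain, and its inhibitor Cst3 had 0.71 and 1.21. Of 8 genes of class I folding in the endoplasmic reticulum, 4 were above and 0 below, unlike the loading genes, with 1283 to 1401 CPM in set B and 955 to 1114 CPM in set A for the chaperone Calr, and overlapping sets for Canx and Hspa5. Of 7 constitutive proteasome partners, 1 was above and 6 below: Psmb7 and Psme3 had log2 ratios of -0.40 and -0.49, and Psme4, another activator, 0.33.

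Of 9 other co-signalling genes, 2 were above and 7 below. Icam1, the adhesion ligand of T cell LFA-1, had 173 to 196 CPM in set B and 573 to 644 CPM in set A, Cd48 had 197 to 221 CPM in set B and 245 to 293 CPM in set A, and the inhibitory receptor Vsir had 297 to 345 CPM in set B and 119 to 129 CPM in set A. Cd274, the ligand of PD-1, named after its values were seen, had 30.9 to 38.3 CPM in set B and 218 to 243 CPM in set A. Of 9 genes of cross-presentation and Fc uptake, 3 were above and 2 below, with 1374 to 1489.6 CPM in set B and 311 to 358 CPM in set A for the mannose receptor Mrc1 and 2925 to 3074 CPM in set B and 3786 to 4850.4 CPM in set A for the oxidase subunit Cybb.

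In the co-culture tests 1 of the 60 passed, for hAMSC against Veh (background 0.236% of all genes tested) and for hAEC against hAMSC (background 0.0222%). Fcgr2b, the inhibitory Fc receptor that takes up immune complexes, had 257 and 259 CPM with hAEC, 374 and 359 CPM with hAMSC and 251 and 268 CPM with Veh in set B. The set A libraries had 1732 and 1695 CPM with hAEC, 1928 and 1965 CPM with hAMSC and 1715 and 1679.5 CPM with Veh. It rose with hAMSC against Veh (log2 fold change 0.35, adjusted p = 0.0130) and was lower with hAEC than with hAMSC (-0.35, adjusted p = 0.0420 by edgeR's quasi-likelihood test). The first call was lost without hAMSC 16, Veh 18, Veh 19 or Veh 20, with adjusted p from 0.0610 to 0.0758, and in set A alone (0.22, adjusted p = 0.0565). With the group alone in the model neither call held. In set B alone the first call held (0.48, adjusted p = 0.00199 by the same test). The second call held in 2 of 12 fits that leave out 1 library each, those without hAMSC 7 or Veh 19. It also held in set B alone (-0.50, adjusted p = 0.00192) and not in set A alone (-0.19, adjusted p = 0.378 by the same test). Among the cell type markers, Cd163 rose with hAMSC against Veh (log2 fold change 0.61, adjusted p = 0.0277). That call was lost without hAEC 3, 4 or 11, hAMSC 16, or Veh 18, 19 or 20, with adjusted p up to 0.128. Cd163 passed in set B alone (0.68, adjusted p = 0.000445) and not in set A alone (0.55, adjusted p = 0.421 by the same test). The hAMSC difference between sets passed for Ccr7 (1.14, adjusted p = 0.0173), lost without hAMSC 15 or any 1 of the 4 Veh libraries, with adjusted p up to 0.0988. Their part in the values of the 51 genes was not tested.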

How the data were processed

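For each library the authors deposited a table of expected counts per gene. The submitters' processing notes name RSEM, STAR, limma, FastQC and Trim Galore and the builds Rnor_6.0 and rn6, without versions or roles. RSEM divides reads that match more than 1 gene, so near-identical RT1 copies carry an uncertainty the tests do not hold. So do Tap1, Tap2, Tapbp, Psme1 and Psmb8, whose counts were whole in at most 3 libraries. Per the labels' protocols, libraries were made with a stranded TruSeq mRNA kit.

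Expected counts were rounded and fitted with edgeR 4.0.16 in R 4.3.3: filterByExpr by group kept 13539 genes, scaling was TMM (factors 0.973 to 1.03), and glmQLFit (robust) and glmQLFTest, two-sided, used group and library set over all 12 libraries, and p-values were adjusted over all genes (Benjamini-Hochberg, threshold 0.05). CPM are scaled to the library's total and not divided by gene length, so levels of different genes are not compared. Intervals are 95%. The difference of a co-culture effect between sets is the interaction term. Alternatives were DESeq2 1.42.0, limma 3.58.1 (voom), other scalings, no filter, the group alone, 2 groups alone, each set alone and each library left out. On simulated data for hAEC against Veh (13539 genes), 79 of 100 genes changed by 0.5 (log2) and 85 of 100 changed by 1 were recovered, with 6 false calls. Smaller changes were not simulated, so no rate is known for differences near 0.10, the class II chain median for hAEC against Veh. Counts of every pair of libraries differed by more than sampling noise (chi-square per degree of freedom 6.24 to 341). Totals were 27382724 to 34922211 counts. The members, gene lists, sets, tests and named genes were chosen with earlier results of these data known: by rule, values of every library are given for the 2 members of highest mean CPM in each role, and the 5 smallest p-values per comparison and up to 3 other pathway genes per list are named. Outside that rule, and after their values were seen, came the values of every library for RT1-Ba, RT1-CE5 and RT1-DMa, a sixth gene for hAEC against hAMSC, the genes of the differences between sets and the cell type markers named singly. Promoter sequences are RefSeq's, build GRCr8, for 44 of the 51 genes.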

Additional observations from a re-analysis of the deposited data

Results flagged for a closer look

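In 2 groups of 4 libraries, out of 153 examined, 1 library lay far from the other 3, past Dixon's 95% critical value for its gap. Chance flags about 1 group in 20 where all 4 libraries vary alike. Each group here holds 2 libraries of each set, so that rate does not apply to genes whose sets lie apart, and both genes named here are among the 9 whose sets overlapped. Cd86 had 59.26 CPM in library hAEC 11, against 44.6 to 46.8 CPM in the other hAEC libraries. RT1-M3-1 had 26.62 CPM in library hAMSC 8, against 30.0 to 30.5 CPM in the other hAMSC libraries.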

How the results depend on the processing

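The count of the 51 genes that passed was 0 in each comparison and interaction under the alternatives run for it, except without an expression filter: 1 for the hAEC difference between sets (RT1-DMa) and 2 for the hAMSC difference (RT1-T24-2 and Cd86). The differences between sets were not refitted with the group alone, 2 groups alone or each set alone, and DESeq2 gave 41 of the 51 an adjusted p for hAMSC against Veh. Counts over all genes moved more. For hAEC against Veh, 0 genes passed, against 13 with DESeq2, 10 with the 2 groups alone, 1 in set A alone and 6 in set B alone. For hAMSC against Veh, 32 passed, against 0 with the group alone in the model, 52 without a filter, 157 with DESeq2, 9 with the 2 groups alone, 86 in set A, 94 in set B and 8 to 153 when 1 library was left out (8 without Veh 18, 153 without hAMSC 15). For hAEC against hAMSC, 3 passed, against 0 with the group alone, 26 without a filter, 76 with DESeq2, 1 in set A, 58 in set B and 0 to 50 when 1 library was left out (50 without hAMSC 7). For the hAEC difference between sets, 0 passed, against 309 without a filter, 20 with DESeq2 and 0 to 5 when 1 library was left out. For the hAMSC difference, 27 passed, against 533 without a filter, 94 with DESeq2, 4 with limma voom and 0 to 158 when 1 library was left out (0 without Veh 19, 158 without hAMSC 16). The cause of these moves was not tested. Of the 51 genes, other scalings gave 31 below in set B and 11 above. Leaving out 1 library cannot undo a separation of the sets, so it is no check of those counts. The sets of RT1-DMa, summed with LOC108348072 as chosen after seeing the data, had a log2 ratio of -0.24. Of 323 set ratios recomputed, 9 moved and 0 reversed. They covered 23 of the 51 genes, and leaving out 1 library cannot reverse a ratio whose sets lie apart. A minimum of 5 CPM keeps 45 of the 51 genes. No paired analysis was possible because the sample numbers are not shared between groups.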
